A study of Homo sapiens with 12 samples.

Results

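H3K27me3 ChIP-seq of T24 cells, a line established from a human urinary bladder cancer, was compared between cells given the EZH2 inhibitor GSK-126 at 5 µM for 72 h and cells given DMSO vehicle. The comparison rests on 2 of the series' 12 samples, chosen by their labels, with 1 library per condition. Another 2 of its 4 H3K27me3 libraries, from cells given the retinoid fenretinide (5 µM, 72 h) or fenretinide with GSK-126 (5 µM of each, 72 h), are used only where GSK-126 was compared again in the presence of fenretinide. In every condition chromatin was fixed with 1% formaldehyde for 10 min. The 4 input and 4 RNA-seq samples were not analysed here, so neither the cell line's marker expression nor the level of EZH2 was checked.

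H3K27me3, trimethylation of lysine 27 of histone H3, is placed by Polycomb repressive complex 2 (PRC2), whose catalytic subunit is EZH2 and whose EED subunit binds the mark and stimulates the enzyme. The mark is known for broad domains over silent developmental regulators, such as the HOX genes, and Polycomb repressive complex 1 reads it through its CBX subunits. GSK-126 competes with the methyl donor S-adenosylmethionine in the active site of EZH2, and the mark is then diluted as chromatin is replicated. In bladder cancer, genes that lead urothelial differentiation and retinoid signalling are among those studied as Polycomb targets.

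The vehicle library held 17133107 fragments and the GSK-126 library 16156194 fragments in 273664 intervals, which are the merged peaks of the 4 libraries. Values below are fragment counts, and a ratio is the share of the GSK-126 library's fragments divided by the share of the vehicle library's. Brackets hold the 95% Clopper-Pearson counting interval, which covers counting error only, and with 1 library per condition no difference has a replicate check or a p-value. "Rose" and "fell" mean a ratio of at least 2 or at most 0.5 with a counting interval that excludes 1. Labels name no spike-in, so a fall in share need not be a loss of the mark, and a rise need not be a gain. A second scaling, to the 25% of intervals with the fewest fragments per kb (background scaling), lowered every log2 ratio by a shift of -0.77.

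With GSK-126 a smaller share of the library lay near genes, and a larger share lay far from them. Of 156925 intervals with at least 20 fragments, 40688 rose (25.9%) and 33927 fell (21.6%), and with background scaling 20175 rose and 66793 fell. Distance to the nearest transcription start site (TSS) was that of the centre of an interval's longest vehicle or GSK-126 peak. Wide domains that contain genes can thus count as far. The 72420 intervals with a peak in neither list, and 344 whose peak was not annotated, have no distance. Intervals less than 2 kb from the nearest TSS had a median log2 ratio of -0.85, with 12.2% risen and 41.6% fallen. Those at 200 kb or more had a median of 0.99, with 48.1% risen and 4.53% fallen, and the median stayed above 0 with background scaling (0.22). Between these ends the medians were -0.93 at 2 to 10 kb, -0.53 at 10 to 50 kb and 0.08 at 50 to 200 kb, the last turning to -0.68 with background scaling. Fragments per kb went from 16.6 with vehicle to 11.5 with GSK-126 within 2 kb of a TSS, and from 8.70 to 14.0 at 200 kb or more.

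Intervals were also ordered by their starting density, as a description. In the quintile of intervals with the fewest vehicle fragments per kb (up to 4.78), 88.0% rose and 2 intervals fell. In the quintile with the most, 1.76% rose and 50.4% fell. A low vehicle count raises the ratio by itself, and a vehicle-sparse interval reaches the minimum of 20 fragments mainly through GSK-126 fragments. Intervals were therefore ordered by the fenretinide library as well, which enters neither side of the ratio. By that order 73.7% of the sparsest quintile rose and 4.10% fell, and 5.50% of the densest quintile rose and 33.9% fell. The sparsest quintile, ordered so, went from 3.86% to 13.7% of library fragments, and the densest from 59.0% to 44.7%. Sparse intervals still enter the merged peaks and pass the minimum more readily where GSK-126 or combination fragments are many, which favours rises in this order too. By width, the ratio was 0.815 (0.814 to 0.817) over the 653 intervals of 100 kb or more, 1.23 (1.23 to 1.24) over those of 5 to 10 kb and 0.975 (0.972 to 0.977) over those under 2 kb. The median log2 ratio was thus below 0 at both ends, -0.45 in the widest class and -0.32 in the narrowest. At 5 to 10 kb it was 0.28, which turned to -0.48 with background scaling.

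Chromosomes differed as well. Chromosome 21 had the highest share of intervals risen, 51.2%, with 12.4% fallen and a median log2 ratio of 1.11 (0.35 with background scaling). It was followed by the X chromosome (38.0% risen, 11.4% fallen) and chromosome 13 (33.7% and 16.0%), whose medians of 0.59 and 0.37 turned to -0.17 and -0.40 with background scaling. Chromosomes 22, 17 and 20 stood at the other end, with 48.2%, 44.2% and 35.1% of intervals fallen and ratios over the whole chromosome of 0.710 (0.706 to 0.713), 0.664 (0.661 to 0.667) and 0.768 (0.765 to 0.770). Chromosome 19 had 44.3% of intervals fallen and a median of -0.82, yet its total share was 1.05 (1.04 to 1.05) times that with vehicle. The 26.7% of its intervals that rose include the zinc-finger genes described further on. Intervals 2 to 5 Mb from the outermost interval of a chromosome had a ratio of 0.736 (0.734 to 0.738).

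**Figure D1:**
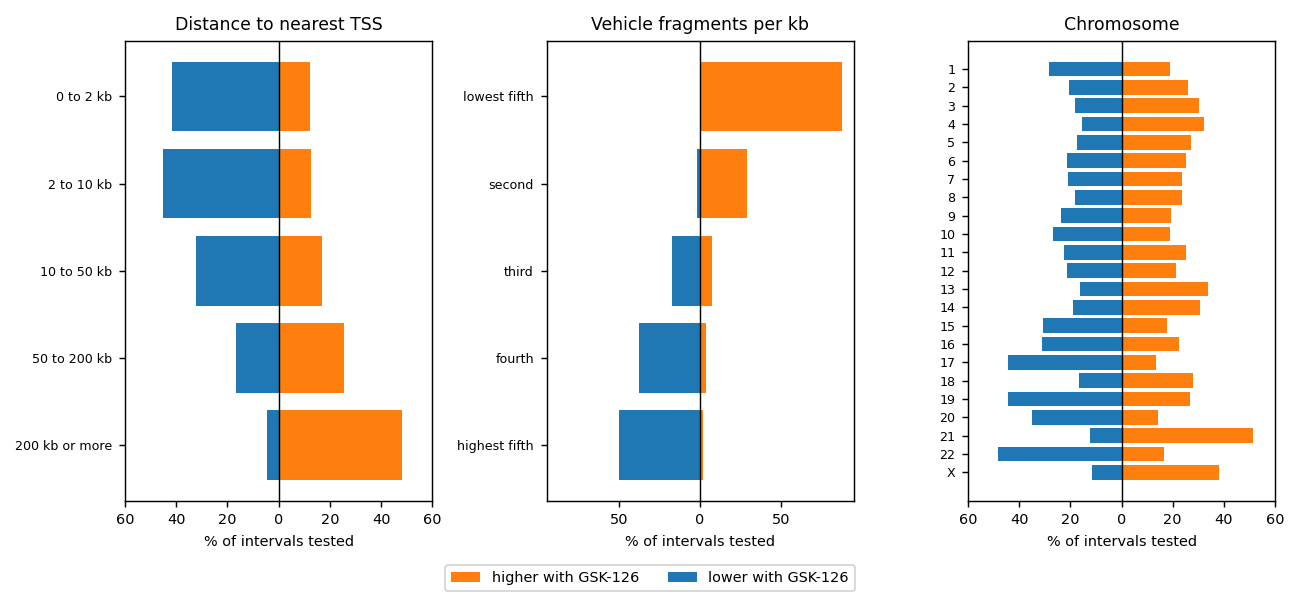
Share of intervals tested that rose (right, orange) or fell (left, blue) with GSK-126, in percent, by distance from an interval's longest peak to the nearest TSS, by quintile of vehicle fragments per kb, and by chromosome. There was 1 library per condition. The share fallen goes from 41.6% within 2 kb of a TSS to 4.53% at 200 kb or more, and chromosome 21 has the largest share risen (51.2%).

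The peak lists were similar in size and differed in place. Vehicle had 212277 peaks over 703 Mb and GSK-126 had 217751 over 700 Mb, of which 358 Mb were shared. At promoters, 54.2% of 2203 peaks called with vehicle met one called with GSK-126 by at least 1 bp, while 81.7% of 2042 peaks with GSK-126 met one with vehicle, so more promoter peaks were found with vehicle alone than with GSK-126 alone. Between genes the shares were alike, at 63.8% of vehicle peaks and 63.0% of GSK-126 peaks. Peaks of 20 kb or more numbered 4235 with vehicle and 2642 with GSK-126. The peaks that were not shared were shorter and weaker, with a median of 0.944 kb against 2.18 kb and a deposited score of 17 against 22 for vehicle.

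Promoters were then placed on the intervals by their RefSeq windows (GRCh38.p14), 250 bases before to 50 bases after each start. Of 15812 windows of protein-coding genes, 3820 lay inside an interval and 3730 were tested, in 3265 intervals; 346 rose (9.28%) and 1495 fell (40.1%). The dinucleotide CG reads the same on both strands and stood in 98.1% of all windows and 96.3% of those tested. Windows with few CGs lay in a tested interval more often than CG-dense ones, 43.4% with up to 4 CGs against 14.9% with 20 or more. Being tested rests on merged peaks of all libraries and a fragment minimum, and is not a call of the mark with vehicle. Among the tested windows the share fallen was 29.4% with up to 4 CGs, 52.8% with 5 to 9, 38.7% with 10 to 19 and 44.0% with 20 or more, so losses were least frequent at the CG-poorest promoters. Of 86 tested ZNF promoters 64 rose and 8 fell, and outside ZNF genes 282 of 3644 rose and 1487 fell.

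The windows below show losses at a promoter with few CGs and at one with many, and gains at promoters between 10 and 43 CGs. They were picked for their range of CG among the largest changes in intervals of at most 10 kb, after their values were seen. Each reads 5′ to 3′ along the gene, with every CG in capitals. CCDC183 (chr9:136796088-136796387, + strand, 5 CGs) encodes a coiled-coil protein and FLRT1 (chr11:64035681-64035980, + strand, 52 CGs) a cell adhesion protein. ZNF486 (chr19:20166964-20167263, + strand, 10 CGs) encodes a zinc-finger protein, CELSR3 (chr3:48662837-48663136, - strand, 30 CGs) a cadherin of axon guidance and WWC3 (chrX:10015004-10015303, + strand, 43 CGs) a protein of the Hippo pathway.
CCDC183: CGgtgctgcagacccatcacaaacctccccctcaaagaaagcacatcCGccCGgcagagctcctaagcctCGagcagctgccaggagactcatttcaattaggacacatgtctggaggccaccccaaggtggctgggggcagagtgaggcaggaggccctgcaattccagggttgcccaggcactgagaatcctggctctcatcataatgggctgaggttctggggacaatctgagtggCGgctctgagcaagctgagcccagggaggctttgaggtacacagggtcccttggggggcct
FLRT1: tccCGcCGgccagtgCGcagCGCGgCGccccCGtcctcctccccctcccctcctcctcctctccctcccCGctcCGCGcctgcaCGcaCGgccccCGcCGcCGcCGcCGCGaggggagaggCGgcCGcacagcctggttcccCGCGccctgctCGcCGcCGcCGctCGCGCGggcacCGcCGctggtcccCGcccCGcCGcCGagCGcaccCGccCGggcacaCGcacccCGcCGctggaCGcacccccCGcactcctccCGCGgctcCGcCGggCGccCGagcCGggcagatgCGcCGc
ZNF486: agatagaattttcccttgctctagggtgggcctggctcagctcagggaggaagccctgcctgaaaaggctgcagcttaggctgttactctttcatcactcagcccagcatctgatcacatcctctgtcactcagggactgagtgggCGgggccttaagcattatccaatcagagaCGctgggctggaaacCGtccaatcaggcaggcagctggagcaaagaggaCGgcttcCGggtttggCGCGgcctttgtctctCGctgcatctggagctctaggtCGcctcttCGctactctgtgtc
CELSR3: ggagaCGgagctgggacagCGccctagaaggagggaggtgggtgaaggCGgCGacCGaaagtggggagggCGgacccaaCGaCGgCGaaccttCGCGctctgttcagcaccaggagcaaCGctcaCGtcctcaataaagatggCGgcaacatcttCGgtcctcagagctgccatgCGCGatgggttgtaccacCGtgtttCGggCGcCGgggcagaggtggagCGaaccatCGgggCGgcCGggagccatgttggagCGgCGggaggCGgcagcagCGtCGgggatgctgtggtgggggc
WWC3: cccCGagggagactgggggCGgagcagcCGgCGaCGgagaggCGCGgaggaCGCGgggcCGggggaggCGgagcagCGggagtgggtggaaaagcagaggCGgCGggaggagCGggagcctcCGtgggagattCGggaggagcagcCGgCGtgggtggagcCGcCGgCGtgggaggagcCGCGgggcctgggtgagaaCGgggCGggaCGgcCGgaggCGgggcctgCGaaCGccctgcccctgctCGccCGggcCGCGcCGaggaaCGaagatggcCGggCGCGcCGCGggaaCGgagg

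The CCDC183 promoter interval held 183 vehicle and 15 GSK-126 fragments, a ratio of 0.0869 (0.0477 to 0.147). That of FLRT1 held 102 and 14 fragments, a ratio of 0.146 (0.0769 to 0.256). On the other side, the ZNF486 promoter interval went from 6 to 116 fragments, a ratio of 20.5 (9.14 to 57.0). CELSR3 went from 11 to 232 fragments, a ratio of 22.4 (12.3 to 45.4). WWC3 went from 7 to 104, a ratio of 15.8 (7.38 to 40.2), so the CG-dense promoters of FLRT1 and WWC3 changed in opposite directions.

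Near genes the mark fell far more often than it rose. A gene's value summed the intervals with a vehicle or GSK-126 peak annotated to it and centred within 10 kb of its TSS. Of 13782 genes with at least 50 fragments, 1538 rose (11.2%), 5742 fell (41.7%) and 6502 did neither, and with background scaling 945 rose and 9483 fell. The median log2 ratio over these genes was -0.79. Each list below is set beside those shares, and genes that share an interval share its value. Among lists of at least 9 genes, HOX genes (median -1.84) and Polycomb subunits (-1.64) had the lowest medians, and ZNF genes of chromosome 19 (3.02) the highest.

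**Figure D2:**
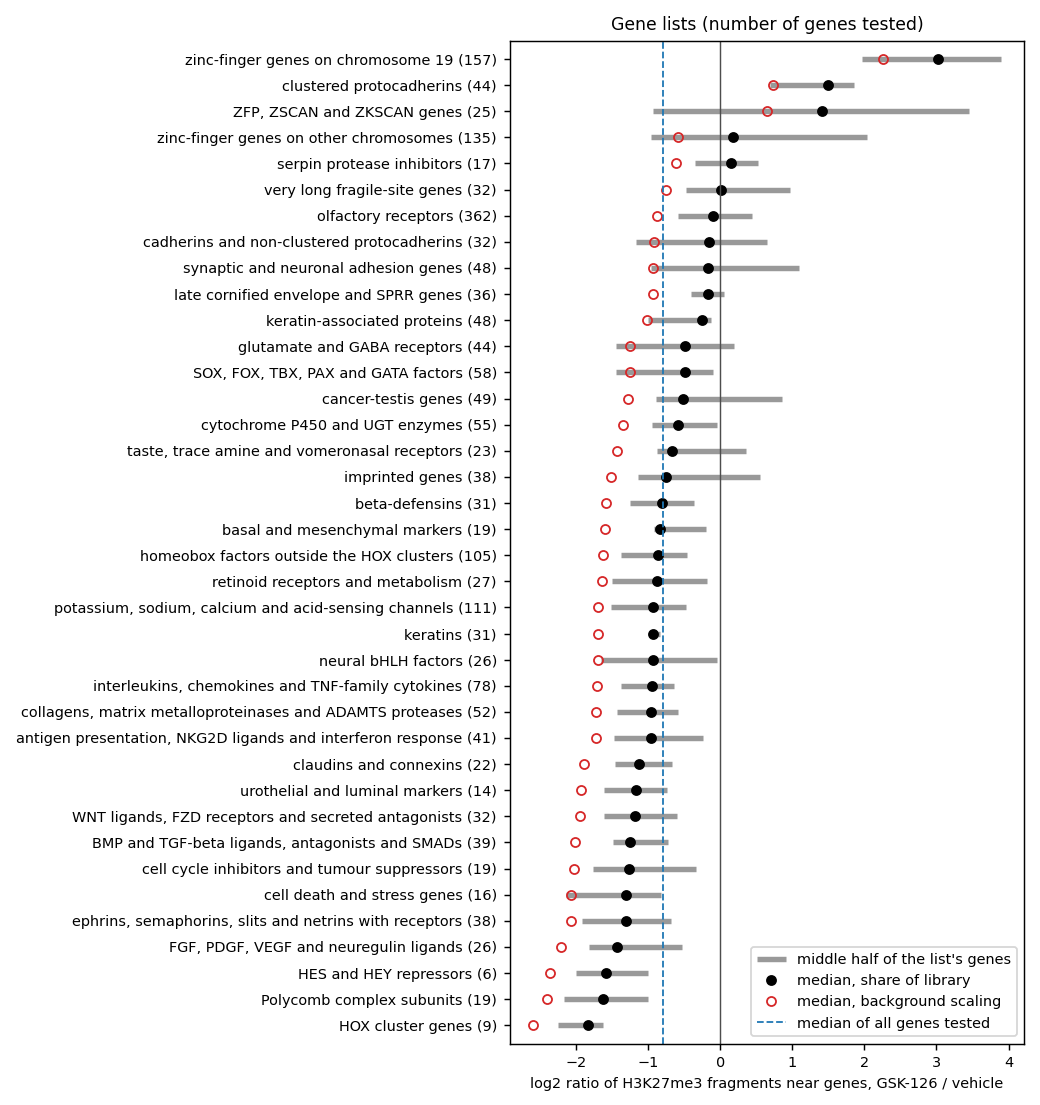
Median log2 ratio of H3K27me3 fragments near genes, GSK-126 over vehicle, for 38 gene lists (filled points), with the interquartile range of each list's genes (grey bars) and the median with background scaling (open red points); the dashed line is the median of all genes tested (-0.79). HOX genes lie lowest (-1.84), while the clustered protocadherins (1.5) and the ZNF genes of chromosome 19 (3.02) lie above 0 under both scalings.

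HOX genes, which set position along the body axis, lost share in each of their 4 clusters. All 9 tested HOX genes fell. The HOXA cluster had 344 fragments with vehicle and 82 with GSK-126, a ratio of 0.253 (0.196 to 0.322), and its marked stretch lay at the HOXA13 end. HOXB went from 549 to 179 fragments (0.346, 0.290 to 0.410), HOXC from 1126 to 331 (0.312, 0.275 to 0.353) and HOXD from 1191 to 610 (0.543, 0.492 to 0.599). The HOXD sum includes sequence outside the cluster, whose RefSeq span is chr2:176087487-176190907. An interval of 31.8 kb at chr2:176055892-176087680, almost wholly before that span, went from 525 to 447 fragments (0.903, 0.794 to 1.03). The 5 other tested intervals all fell, to ratios between 0.203 and 0.332. The last of them, chr2:176189752-176199698, reaches past the other edge. HOXA13, the most posterior gene of its cluster, was at 0.153 (0.0917 to 0.242).

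Other developmental transcription factors fell more often than they rose, as all genes did. Of 105 homeobox genes outside the HOX clusters, 49 fell and 5 rose (median -0.86), which is 46.7% and 4.76% against 41.7% and 11.2% of all genes. PRRX2, a factor of mesenchyme, went from 730 to 146 fragments (0.212, 0.176 to 0.254), and LMX1B, of limb and midbrain patterning, from 764 to 161 (0.223, 0.187 to 0.265). HHEX, a factor of liver and blood development, went from 33 to 124 fragments (3.98, 2.70 to 6.04), and IRX1 from 951 to 2175 (2.43, 2.25 to 2.62). Of 58 SOX, FOX, TBX, PAX and GATA genes, 26 fell (44.8%) and 4 rose (6.90%). Their median of -0.49 was above the -0.79 of all genes. PAX2, a kidney and nervous system factor, fell from 2183 to 450 fragments over 49.0 kb.

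The SOX genes of neural progenitors moved the other way. SOX11 lay in 1 interval of 179 kb, chr2:5633451-5812938, which went from 648 to 3369 fragments, a ratio of 5.51 (5.07 to 6.01). SOX3 went from 88 to 604 fragments (7.28, 5.81 to 9.21). GATA3, a luminal factor of the urothelium, had 92 fragments with vehicle and 66 with GSK-126 and did neither (0.761, 0.546 to 1.06). Among 26 basic helix-loop-helix factors 11 fell (42.3%) and 1 rose (3.85%), against 41.7% and 11.2% of all genes. The one that rose was HAND2, of heart and limb, from 75 to 292 fragments (4.13, 3.19 to 5.40), while its relative HAND1 fell from 1795 to 435 (0.257, 0.231 to 0.286). Of the 6 tested HES and HEY repressors, which act below Notch, 4 fell and none rose, among them HES1 from 88 to 23 fragments and HEY2 from 385 to 141.

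Genes of secreted signals had larger shares of falls than all genes. Among 32 WNT ligands, FZD receptors and secreted antagonists 20 fell and none rose (median -1.18). RSPO1, which strengthens WNT signalling, went from 1507 to 314 fragments (0.221, 0.195 to 0.25), WNT6 from 888 to 205, WNT10A from 1156 to 281 and the antagonist SFRP5 from 564 to 132. In the BMP and TGF-beta list, 25 of 39 fell and 3 rose (median -1.25). SMAD7, an inhibitory SMAD that is itself induced by TGF-beta, had 115 vehicle fragments and 7 with GSK-126 over 4 intervals, a ratio of 0.0645 (0.0254 to 0.137). SMAD9 and the receptor gene BMPR1B fell to 0.236 and 0.247. ACVR2B, an activin receptor, rose from 13 to 100 fragments (8.16, 4.56 to 15.9) and the signal transducer SMAD1 from 10 to 44 (4.67, 2.31 to 10.4).

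Growth factor genes followed. Of 26, 16 fell (61.5%) and 1 rose (3.85%), against 41.7% and 11.2% of all genes (median -1.44). IGF2, a fetal growth factor, fell from 766 to 123 fragments over 19.5 kb, a ratio of 0.170 (0.140 to 0.206). The metabolic hormone gene FGF21 fell from 595 to 107 and BTC, a ligand of the EGF receptor, from 46 to 8. NRG3, a neuregulin of the nervous system, was the one that rose, from 176 to 879 fragments (5.30, 4.50 to 6.26). Axon guidance genes had similar shares, 25 fallen (65.8%) and 2 risen (5.26%) of 38 (median -1.31). The ephrin gene EFNA3 went from 174 to 30 fragments and SEMA4A from 92 to 15, while SEMA5A rose from 81 to 321 (4.20, 3.28 to 5.43) and the netrin receptor gene DCC from 108 to 213 (2.09, 1.65 to 2.66).

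Genes of the machinery that writes and reads the mark mostly lost share where they had enough fragments to be tested. Of 19 Polycomb subunit genes tested, 14 fell (73.7%) and 1 rose (5.26%), against 41.7% and 11.2% of all genes. EED had 87 fragments with vehicle and 13 with GSK-126 over 3 intervals of 5.20 kb together (0.158, 0.0811 to 0.285). CBX2, a reader subunit, fell from 401 to 77 (0.204, 0.157 to 0.260), its neighbour CBX8 from 603 to 124 (0.218, 0.178 to 0.265), and BCORL1, a partner of a variant PRC1, from 49 to 6. SCMH1, a sex comb protein of PRC1, was the one that rose, from 15 to 189 fragments in 1 interval (13.4, 7.90 to 24.3). EZH2 and SUZ12 had no vehicle or GSK-126 peak annotated to them within 10 kb, so the mark at the drug's own target was not measured. In the list 26 of 45 written genes had an interval.

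Neuronal genes did not move as a block. Of 111 potassium, sodium, calcium and acid-sensing channel genes 54 fell and 1 rose (median -0.93). ASIC1 went from 189 to 35 fragments and KCNN3 from 165 to 30, and the inward rectifier gene KCNJ3 rose from 103 to 322 (3.32, 2.65 to 4.18). Glutamate and GABA receptor genes were at 14 fallen and 5 risen of 44, with GABBR1 falling from 241 to 52 fragments and GRM7 rising from 144 to 433. Among 48 synaptic and neuronal adhesion genes 13 rose (27.1%) and 12 fell (25%), with a median of -0.17 that turned to 0.27 with peaks up to 50 kb from the TSS. CNTN4 rose from 166 to 790 fragments (5.05, 4.26 to 6.0) and NLGN4X from 195 to 678, while NRCAM fell from 433 to 84. Of 32 very long genes at fragile sites 8 rose and 2 fell, with a median of 0.01 that turned to -0.034 with TMM scaling and -0.75 with background scaling. EYS went from 42 to 204 fragments and the phosphatase gene PTPRD from 19 to 64.

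Clustered protocadherins, which give neurons individual surface identities, rose along chromosome 5. Of 44 genes 28 rose and none fell (median 1.5, or 0.73 with background scaling, where 16 rose and 2 fell), but these genes rest on 22 intervals. The ratio of summed fragments was lowest for PCDHA and highest for PCDHG, but these sums include sequence outside the clusters. PCDHA had 4373 fragments with vehicle and 6624 with GSK-126 (1.61, 1.55 to 1.67), a direction that turns with background scaling. PCDHB went from 2892 to 6407 (2.35, 2.25 to 2.46) and PCDHG from 690 to 2473 (3.80, 3.49 to 4.14). Among the PCDHA intervals the first, chr5:140726692-140840675, went from 1342 to 3571 fragments (2.82, 2.65 to 3.01), whereas the last, chr5:141005378-141033984, went from 592 to 340 (0.609, 0.531 to 0.697). At the end of PCDHB an interval of 96.5 kb, chr5:141223627-141320136, went from 441 to 3266 (7.85, 7.11 to 8.69). All of these intervals reach past the RefSeq spans of their clusters, chr5:140786140-141012347 for PCDHA and chr5:141051374-141249365 for PCDHB. They and the sums that include them are thus not over cluster genes alone, and a gradient across the clusters was not tested.

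Unclustered cadherins were mixed, with 7 risen and 11 fallen of 32 and a median of -0.16 that turned to 0.24 and 0.27 with TSS distances of 2 and 50 kb. CELSR3 was the largest rise of the list, and the others named rose from 87 to 358 fragments (CDH7) and from 18 to 80 (CDH19). CDH22 fell from 6376 to 1597 over 129 kb (0.266, 0.251 to 0.281).

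Zinc-finger genes of the ZNF series, most of which encode KRAB repressors of transposable elements, had the highest list median where they lie on chromosome 19. There, 132 of 157 rose and 6 fell (median 3.02, or 2.26 with background scaling). On other chromosomes 55 of 135 rose and 33 fell, with a median of 0.17 that turned to -0.59 with background scaling. The related ZFP, ZSCAN and ZKSCAN genes had 14 risen and 6 fallen of 25, with a median of 1.41 that turned to -0.55 within 2 kb of the TSS. ZNF586 had 0 fragments with vehicle and 72 with GSK-126, which is 25.5-fold against a floor of 3 counts per library and at least 20.2-fold higher by the lower 95% counting limit. ZFP37 went from 57 to 1078 fragments over 6.64 kb (20.1, 15.4 to 26.7) and ZSCAN29 from 3 to 119 (42.1, 14.1 to 207). Falls were found too: ZNF579 went from 83 to 14 fragments (0.179, 0.0937 to 0.317) and ZNF423, a large developmental factor gene, from 3880 to 767 over 130 kb (0.210, 0.194 to 0.227). Zinc-finger genes are paralogs, and how reads that fit several copies were counted is not given in the sources used here.

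Bins of 2 Mb along chromosome 19 showed gains and losses side by side. Between 36 and 38 Mb, where RefSeq places 27 ZNF genes, 4892 fragments became 47141, a ratio of 10.2 (9.92 to 10.5), and 56 of 58 intervals rose. The next bin, between 38 and 40 Mb, held no ZNF gene and went from 19157 to 9006 fragments, a ratio of 0.499 (0.486 to 0.511). Between 22 and 24 Mb, with 17 ZNF genes, the ratio was 7.67 (7.47 to 7.88), and between 4 and 6 Mb, with none, 0.405 (0.393 to 0.416). The ratio did not follow the number of ZNF genes alone: the bin with the most, 41 ZNF genes between 56 and 58 Mb, was at 2.46 (2.41 to 2.51), and that between 44 and 46 Mb, with 16, at 0.910 (0.884 to 0.937). Between 26 and 28 Mb, next to the centromere and without a ZNF gene, the ratio was 3.21 (3.09 to 3.33).

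**Figure D3:**
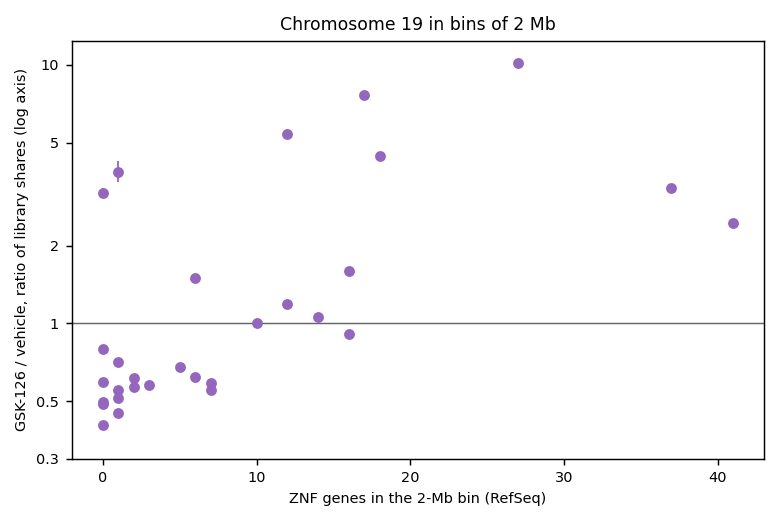
Ratio of library shares, GSK-126 over vehicle (log axis), against the number of ZNF genes RefSeq places in each 2-Mb bin of chromosome 19; bars are 95% counting intervals, mostly smaller than the points. Most bins with up to 7 ZNF genes lie below 1 (lowest 0.405), and bins with 17 or more lie between 2.46 and 10.2.

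The largest single gains and losses in fragments lay in a few domains. The greatest gain on the assembled chromosomes was at chr16:46386206-46392025, 5.82 kb near ANKRD26P1 and the centromere, where 1664 fragments became 28053 (17.9, 17 to 18.8). This interval held 286 vehicle and 4820 GSK-126 fragments per kb, against 13.2 and 12.5 over all intervals, and was not checked against input. It was followed by a domain of 584 kb with ZNF729 and ZNF492, chr19:22168539-22752418, from 1551 to 17651 (12.1, 11.5 to 12.7), and by one of 482 kb near TRIM48, chr11:54778198-55260562, from 2112 to 16958 (8.51, 8.14 to 8.91). Repeats gained as well. Over the 5S ribosomal RNA repeats of chromosome 1, 36 fragments became 1254 (36.9, 26.5 to 53.0), and DUX4L4, a copy of a macrosatellite repeat gene, had 0 and 105 fragments, 37.1-fold against that floor and at least 29.7-fold higher by the counting limit. All 7 intervals of the unplaced contig KI270438v1 rose, from 2489 to 70143 fragments together. Values at repeats are uncertain for the same reason as for paralogs, and the fenretinide library was also above vehicle there (4711 against 1542 fragments in the largest of these intervals).

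The largest losses were broad, and most lay near chromosome ends. At chr1:2777308-3312713, a domain of 535 kb that holds TTC34, ACTRT2 and part of PRDM16, a factor of brown fat and blood stem cells, 25989 fragments became 8753 (0.357, 0.349 to 0.366). A 649 kb domain with OLFM1 and FCN1 on chromosome 9 went from 24995 to 10011 (0.425, 0.415 to 0.435), and one of 433 kb near the endothelin gene EDN3 on chromosome 20 from 20017 to 9853, which at 0.522 (0.510 to 0.535) did not pass the rule. The 6 largest losses lay within 5 Mb of the outermost interval of their chromosomes, while 3 of the next 4, on chromosomes 17 and 20, lay 8.5, 9.07 and 15.7 Mb away. Fragments per kb in the chromosome 1 domain went from 48.5 to 16.3, where the mean over all intervals of the GSK-126 library was 12.5.

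Retinoid genes, which matter here because the series pairs GSK-126 with a retinoid, had 12 fallen and 2 risen of 27 tested (median -0.88), close to all genes. RARG, a retinoic acid receptor, fell from 344 to 69 fragments in 1 interval of 13.9 kb (0.213, 0.162 to 0.276). RARB, a receptor that is itself a retinoic acid target, had 97 fragments with vehicle and 44 with GSK-126 over 4 intervals, a ratio of 0.481 (0.329 to 0.694), just past the rule. CYP26A1, which degrades retinoic acid, had 120 and 65 fragments and did neither (0.574, 0.418 to 0.783). STRA6, the receptor for vitamin A uptake, fell from 92 to 23, and the dehydrogenase-reductase gene DHRS4 rose from 89 to 372 (4.43, 3.51 to 5.65).

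Of 14 tested urothelial and luminal markers 9 fell (64.3%) and none rose (median -1.17), against 41.7% fallen and 11.2% risen of all genes. The uroplakin genes, which encode the plaque proteins of the urothelial surface, were not alike: UPK1A went from 169 to 39 fragments, UPK2 from 702 to 218 and UPK3A from 439 to 134, while UPK1B went from 225 to 332 and did neither (1.56, 1.32 to 1.86, a direction that turns with background scaling). Of 19 basal and mesenchymal markers 4 fell (21.1%) and 2 rose (10.5%), with a median of -0.84. KRT17 fell from 149 to 42 fragments, and the repressor gene SNAI1 from 60 to 14, whereas CDH11, a mesenchymal cadherin, rose from 145 to 292 (2.14, 1.74 to 2.62). These values describe the mark, not expression.

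Stress, death and cell cycle genes were mostly lower. Of 16 cell death and stress genes 10 fell (62.5%) and none rose (median -1.31), against 41.7% fallen and 11.2% risen of all genes. ATF3, a stress-induced transcription factor, went from 165 to 24 fragments (0.154, 0.0961 to 0.238), and BIK, which promotes apoptosis, from 144 to 25 (0.184, 0.115 to 0.283). Of 19 genes that restrain the cell cycle or suppress tumours, 12 fell (63.2%) and 1 rose (5.26%), with a median of -1.26. KLF4 fell from 49 to 6 fragments and KLF11 from 48 to 10. CDKN1A and CDKN2A, which encode inhibitors of cyclin-dependent kinases, had no vehicle or GSK-126 peak annotated to them within 10 kb. Only 16 of 45 written death and stress genes and 19 of 42 cell cycle genes had enough fragments to be tested.

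Immune genes were near the background. Cytokine genes had 38 fallen and 2 risen of 78 (median -0.94). The interferon lambda gene IFNL3 fell from 127 to 17 fragments (0.142, 0.0802 to 0.236), and IL33, an alarm cytokine, rose from 36 to 147 (4.33, 2.99 to 6.42). In antigen presentation and the interferon response 20 of 41 fell and 2 rose. HLA-B fell from 164 to 66 fragments, HLA-DMB from 529 to 152 and ULBP2, a ligand of the killer cell receptor NKG2D, from 313 to 71, and IFI44 rose from 11 to 62. HLA-DRA, with 1455 and 905 fragments, did neither.

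Families that lie in long arrays differed among themselves. All 36 tested late cornified envelope and SPRR genes did neither (median -0.18). Of 362 olfactory receptor genes 65 rose (18.0%) and 37 fell (10.2%), and 260 did neither. OR2T1 on chromosome 1 rose from 10 to 137 fragments, and OR7G1, OR7G2 and OR1M1, which share an interval on chromosome 19, fell from 1581 to 451 (0.303, 0.272 to 0.336). Of 31 keratin genes 6 fell and 2 rose (median -0.94), and of 48 keratin-associated protein genes 12 fell and 3 rose. KRTAP5-2 to KRTAP5-5 share an interval of 103 kb that fell from 5159 to 1145 (0.235, 0.221 to 0.251).

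Barrier, matrix and metabolic families had counts on both sides of the background. Claudin and connexin genes, which form tight and gap junctions, had 12 fallen and none risen of 22, with GJA3 going from 65 to 11 fragments. Collagen and matrix protease genes had 23 fallen and 2 risen of 52, with COL1A1 falling from 103 to 23. Of 55 cytochrome P450 and UGT genes 13 fell and 1 rose, and of 31 beta-defensin genes 13 fell and 1 rose. The 17 serpin genes had 3 fallen and 2 risen, with a median of 0.15 that turned to -0.62 with background scaling. Cancer-testis genes, mostly on the X chromosome, had 11 risen and 12 fallen of 49: MAGEC1 rose from 9 to 71 fragments and SPANXN1 from 69 to 355, while GAGE1 fell from 236 to 68.

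Imprinted genes, of which 1 parental copy is silent, had 11 fallen and 6 risen of 38 (median -0.75). MEST rose from 17 to 83 fragments (5.18, 3.05 to 9.31), SNRPN from 1661 to 3189 (2.04, 1.92 to 2.16), and DLK1 fell from 559 to 145 (0.275, 0.228 to 0.331). KCNQ1, with 3957 and 2079 fragments (0.557, 0.528 to 0.588), and PEG3, with 3263 and 5988 (1.95, 1.86 to 2.03), did neither. In the stretch from H19 to IGF2 on chromosome 11, 2627 fragments became 1519 (0.613, 0.575 to 0.653), but only 2 of its 11 tested intervals fell. The interval over IGF2 was one, and the interval of 32.3 kb at chr11:2041728-2074010 went from 1316 to 851 (0.686, 0.628 to 0.748).

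GSK-126 was compared again on a fenretinide background, in the combination library against the fenretinide library. The comparisons share no library, but they differ in fenretinide and are not replicates. Across 147129 intervals tested in both, the log2 ratios had a Pearson correlation of 0.845 and the same sign in 85.1%, as a description over intervals that share libraries. In the second comparison 30524 of 163891 intervals rose (18.6%) and 19862 fell (12.1%). Of the intervals that rose with GSK-126 alone, 59.4% also rose there (79.2% of the second list), and of those that fell, 37.2% also fell (63.6% of the second list). With background scaling the shares were 45.4% and 69.2%. The second changes were smaller: over the intervals that rose with GSK-126 alone the median log2 ratio was 1.83, and 1.24 in the second comparison, and over those that fell it was -1.54 and -0.90. Values picked as large in the first comparison are larger there by the choice itself.

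**Figure D4:**
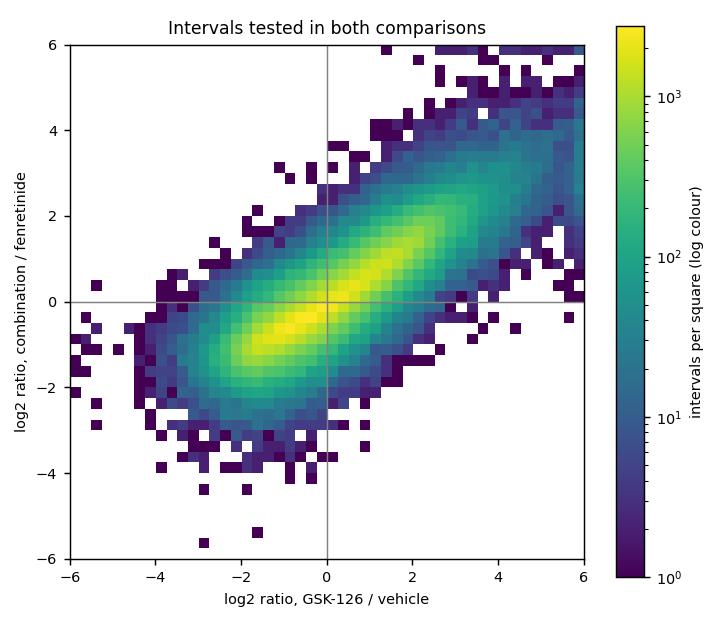
Log2 ratio of library shares for GSK-126 over vehicle (x) and the combination over fenretinide (y) across 147129 intervals tested in both, with the number of intervals per square in colour (log scale); values beyond -6 or 6 are drawn at the edge. The cloud runs along the diagonal (Pearson r of 0.845).

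Genes were compared in the same way. In the second comparison 1198 of 13492 genes rose (8.88%) and 2547 fell (18.9%). Of the genes that rose with GSK-126 alone, 1104 (71.8%) rose again, of those that fell, 2390 (41.6%) fell again, and none was called in opposite directions. SMAD7 went from 63 fragments with fenretinide to 16 with the combination (0.304, 0.164 to 0.533), and EED from 70 to 25 (0.428, 0.259 to 0.684). CELSR3 went from 14 to 112 (9.58, 5.48 to 18.1), SOX11 from 840 to 2704 (3.85, 3.56 to 4.17) and ACVR2B from 16 to 105 (7.86, 4.62 to 14.2), the last about as much as without fenretinide. RARB went from 101 to 55 (0.652, 0.461 to 0.914) and did not pass the rule a second time. HOX genes also had a smaller change there, with a median of -0.79 against -1.84, as had Polycomb subunits, with -1.12 against -1.64. The same held for all tested genes, with a median of -0.49 against -0.79.

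**Figure D5:**
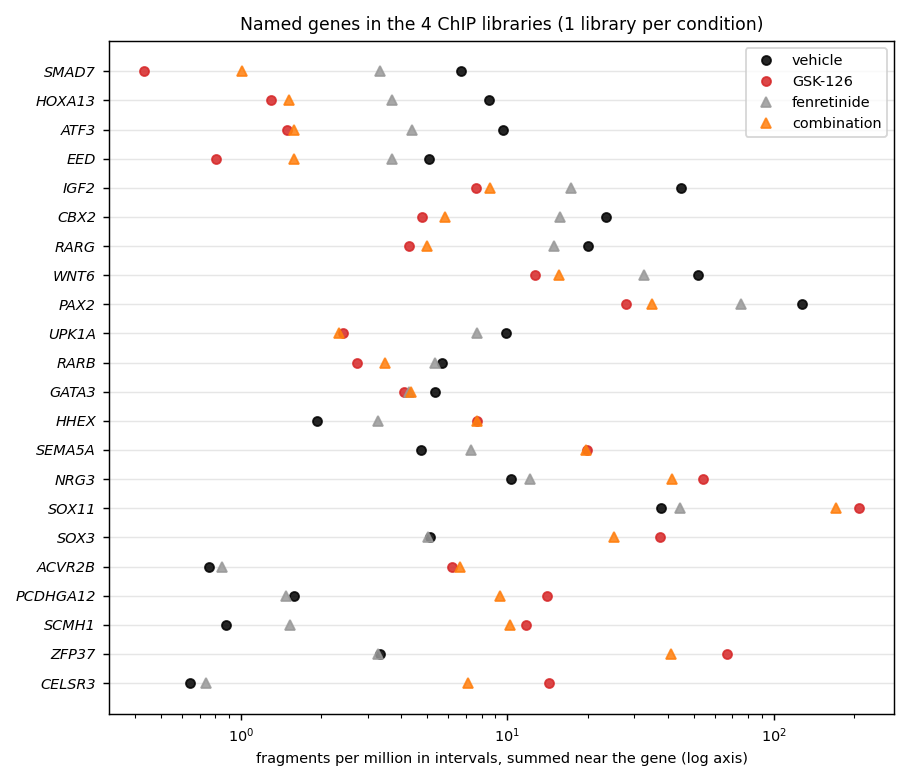
Normalised fragments, as a share of each library's total in intervals (log axis), summed near each of 22 genes, in the vehicle, GSK-126, fenretinide and combination libraries, 1 library per condition. Genes above GATA3 have the vehicle and fenretinide points to the right of the GSK-126 and combination points, and from HHEX down the order is the other way round.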

How the data were processed

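H3K27me3 ChIP-seq of T24 cells was analysed from the authors' deposited files. Raw fragment counts per interval were made with featureCounts 2.0.1 on paired reads, without strand, with a minimum overlap of 0.2 and multiple overlaps allowed, per the file headers. Peak lists come from MACS2 2.1.0 on GRCh38 (hg38), per the submitters' processing notes, with HOMER annotation columns; the deposited peak scores start at 10. The aligner, the control used for calling and the antibody are not given in the sources used here.

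Counts were divided by each library's total over all intervals. Ratios have exact 95% intervals; intervals with at least 20 fragments over both libraries and genes with at least 50 were tested, calls need a 2-fold ratio, log2 values use a pseudocount of 0.5, and a count of 0 is given a floor of 3 counts. Gene values use peaks whose annotated centre lies within 10 kb of the TSS. Calls were checked on simulated counts with counting error only, which cannot show how far libraries vary. Ratios were computed in Python 3.11.15 (scipy 1.17.1, pandas 2.3.3, numpy 2.4.6). R 4.3.3 gave the size factors of DESeq2 1.42.0 and the TMM factors of edgeR 4.0.16, and matplotlib 3.10.9 drew the figures. Named genes are the largest changes in each direction within each list, with genes fixed by name; others were chosen after their values were seen. The members, gene lists and rules were chosen with earlier results of these data known. Alternatives were other scalings, fragment minimums, fold thresholds, TSS distances and peak rules.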

Additional observations from a re-analysis of the deposited data

Results flagged for a closer look

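Some intervals moved in opposite directions in the comparisons without and with fenretinide. In 31 intervals the share was higher with GSK-126 than with vehicle and lower with the combination than with fenretinide, and in 20 intervals the order was the reverse. These 51 intervals had a median of 59 fragments over the 4 libraries and at most 142. From H19 to IGF2 the ratio was 0.613 (0.575 to 0.653) without fenretinide and 1.10 (1.03 to 1.17) with it. These are sums over 12 intervals. The interval over IGF2 itself fell in both comparisons, to 0.170 (0.140 to 0.206) and 0.496 (0.403 to 0.608). The difference between the comparisons was not tested.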

How the results depend on the processing

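No paired analysis was possible because the labels carry no replicate numbers and each condition has 1 library, which also leaves no library to omit. Background scaling gave 20175 intervals higher and 66793 lower, 945 genes higher and 9483 lower, and shares of 45.4% and 69.2% called again with fenretinide. A minimum of 50 fragments gave 25486 and 19881 intervals, and a 3-fold threshold 26652 and 16899 intervals and 2570 genes lower. TSS distances of 2 kb gave 521 genes higher and 2243 lower, and 50 kb gave 2776 higher. Shared vehicle peaks were 43.2% with the stricter overlap, 0.5 of the length, and 46.9% with scores of at least 20. Ordered by fenretinide density, an order chosen after seeing the data, 73.7% of the sparsest quintile rose and 33.9% of the densest fell.

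List medians changed sign as follows. Synaptic genes were at 0.27 within 50 kb, and cadherins at 0.24 within 2 kb and 0.27 within 50 kb. Fragile-site genes were at -0.034 with TMM, -0.75 with background scaling, -0.11 with no minimum, -0.094 with a minimum of 100 and -0.33 within 2 kb. ZNF genes off chromosome 19 were at -0.59 with background scaling, and ZFP, ZSCAN and ZKSCAN genes at -0.55 within 2 kb. Serpins were at -0.62 with background scaling, -0.21 with no minimum, with a minimum of 100 and within 50 kb, and -0.36 within 2 kb. Of 104 genes named in the report, none that was called turned, but UPK1B, called neither, went from 0.64 to -0.12 with background scaling and CYP26A1 from -0.79 to 0.14 within 50 kb. IRX1, KCNJ3, GRM7, DCC, CDH11 and SNRPN lost their call with background scaling (SNRPN also with TMM), and GATA3, CYP26A1, HLA-DRA and KCNQ1 became lower. TSS distances of 2 and 50 kb ended 17 and 9 calls, that of RARB within 50 kb among them. Low counts limit genes such as SMAD7, SMAD1 and BTC.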
